A study of Mus musculus with 9 samples.

Results

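The adhesion molecules described here are 9 genes of the adhesion of leukocytes to the vessel wall and to endothelial or epithelial junctions. They are the junction genes Jaml, Cxadr, Jam2 and Jam3 and the integrin ligands Icam1 and Vcam1. The selectins Sele and Selp and the selectin ligand Selplg complete the 9 genes. Their rows were taken by Entrez identifier from a table of 18755 genes, and all 9 were present and passed the filter on low counts. They were chosen on the basis of differences in their counts between treated and control tumors, which were already known, so that their values in this comparison are given as a description without a test.

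RNA was sequenced from primary tumors of 4T1, a mouse line of metastatic breast cancer cells, of which 1000000 were injected into mammary fat pad 9 of female BALB/c mice aged 6 to 10 weeks. From day 15 after injection, 6 mice received 50 mg/kg of BI 853520 (abbreviated BI), an inhibitor of focal adhesion kinase (FAK), by daily oral gavage for 5 days in 0.5% Natrosol, and 3 mice received Natrosol alone (vehicle). Pieces of whole tumor gave 1 library each, the mice were immunocompetent, and all tumors came from the same cell line. The authors analysed only tumors whose RNA was of adequate quality. In such bulk samples, fewer cells of a type and less RNA per cell cannot be told apart.

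Leukocytes leave the blood in steps. Selectins on activated endothelium catch passing cells by glycans on P-selectin glycoprotein ligand (PSGL, encoded by Selplg), leukocyte integrins then bind intercellular and vascular cell adhesion molecules (Icam1, Vcam1), and proteins of the junctional adhesion molecule family meet the cell at the endothelial or epithelial border. Jaml encodes a receptor on myeloid cells and subsets of T cells, and its counter-receptor is the product of Cxadr, the coxsackievirus and adenovirus receptor, which lies in the tight junctions of epithelial cells. Cxadr is thus known mainly as a gene of epithelium and not of endothelium or leukocytes.

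Total gene counts ranged from 21727879 to 33850245 in vehicle-treated tumors and from 16931607 to 22349873 in BI-treated tumors, and a floor of 3 counts stood for 0.0884 to 0.174 CPM (counts scaled to a library of 1000000 reads, with TMM factors), which covers counting error only. Marker transcripts of the cell types that these genes belong to were found in all tumors. The 16 endothelial markers summed to between 553 and 556 CPM in vehicle-treated and between 597 and 738 CPM in BI-treated tumors, and 5 of them were called higher, a count that was 0 without vehicle replicate 3, 2 without vehicle replicate 1 and 3 without BI replicate 1. The 8 pan-leukocyte markers, Ptprc among them, summed to between 1464 and 1654 CPM against between 2071 and 2492 CPM, and 8 of 8 were called higher. Of the 10 epithelial markers, Krt8 and Krt18 made up most of the sum, and the list summed to between 965 and 1191 CPM with vehicle and between 759 and 968 CPM with BI. Krt8 and Krt18 were the 2 epithelial markers called lower, the count being 1 without vehicle replicate 1 or 2 or any of BI replicates 3 to 6, while Epcam was at means of 2.13 and 4.42 CPM.

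Promoter sequences illustrate the inducible part of this set. The cytokine-induced genes Icam1 and Sele and the stored selectin gene Selp are shown beside Jaml, which had the largest increase among the 9 genes. Of the 9 genes, 4 had an entry in the RefSeq promoter table (GRCm38.p6), and the 250 bases before the listed start are printed 5′ to 3′, each on the plus strand. Capitals mark matches on either strand to the letters of 4 motifs, which were picked after the sequences had been read. For NF-kappaB the letters GGAAATT were searched. For STAT factors they were TTCNNNGAA. For AP-1 they were TGANTCA. For the TATA box they were TATAAA. In these windows no match overlapped another.

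Jaml, chr9:45078933-45079182: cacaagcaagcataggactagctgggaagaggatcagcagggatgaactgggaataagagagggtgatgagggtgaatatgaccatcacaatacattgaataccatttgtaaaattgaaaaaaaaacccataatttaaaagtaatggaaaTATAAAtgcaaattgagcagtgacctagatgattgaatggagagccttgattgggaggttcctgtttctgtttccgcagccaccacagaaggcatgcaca

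Icam1, chr9:21015690-21015939: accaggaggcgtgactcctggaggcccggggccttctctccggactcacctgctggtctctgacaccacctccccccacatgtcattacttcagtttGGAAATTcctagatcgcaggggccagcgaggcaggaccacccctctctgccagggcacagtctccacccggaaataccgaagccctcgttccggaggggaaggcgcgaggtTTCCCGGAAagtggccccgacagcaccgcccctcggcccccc

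Sele, chr1:164047984-164048233: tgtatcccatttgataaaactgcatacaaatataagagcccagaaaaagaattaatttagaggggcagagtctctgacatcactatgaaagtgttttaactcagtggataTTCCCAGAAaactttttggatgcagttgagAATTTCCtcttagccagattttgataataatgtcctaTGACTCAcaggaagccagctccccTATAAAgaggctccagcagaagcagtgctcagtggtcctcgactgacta

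Selp, chr1:164115014-164115263: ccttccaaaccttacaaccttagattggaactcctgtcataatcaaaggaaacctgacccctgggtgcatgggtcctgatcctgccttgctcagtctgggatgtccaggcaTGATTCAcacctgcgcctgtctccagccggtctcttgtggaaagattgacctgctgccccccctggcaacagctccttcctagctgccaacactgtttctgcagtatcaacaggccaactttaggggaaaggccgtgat

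Icam1 had an NF-kappaB match from 153 to 147 bases before the start and a STAT match from 42 to 34 bases. Sele had all 4 kinds: STAT from 140 to 132, NF-kappaB on the minus strand (AATTTCC) from 110 to 104, AP-1 from 73 to 67 and the TATA box from 49 to 44 bases before the start. Selp had an AP-1 match from 139 to 133 bases, and Jaml had only TATAAA, from 100 to 95 bases before the start. Of 32851 windows of the same length, 3.24% held the NF-kappaB letters, 7.02% the STAT letters, 6.75% the AP-1 letters and 12.4% TATAAA. A match describes letters in a window and not a bound site.

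Over all 13966 genes tested by the quasi-likelihood F test of edgeR, 28.7% had an adjusted p at or below 0.05, with 14.6% higher and 14.1% lower in BI-treated tumors. Of the 9 adhesion genes 4 were called by this rule: Jaml, Selplg and Jam2 were higher and Cxadr was lower. The other 5 were Jam3, Icam1, Vcam1, Sele and Selp. By the cutoffs used in the study (unadjusted p at or below 0.05 and a change of 1.5-fold or more), which 13.2% of the genes passed, 3 of the 9 were called, Jam2 being left out. The values of the groups did not overlap for the same 4 genes (3 above, 1 below), as they did not for 28.1% of all genes tested (14.1% above, 14.0% below). The median log2 fold change of the 9 genes was 0.24, the value of Selp, whose groups overlapped, against -0.00371 over all genes tested. Because the 9 genes were chosen by this comparison, their calls, intervals and median describe them and are not a test.

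**Figure D1:**
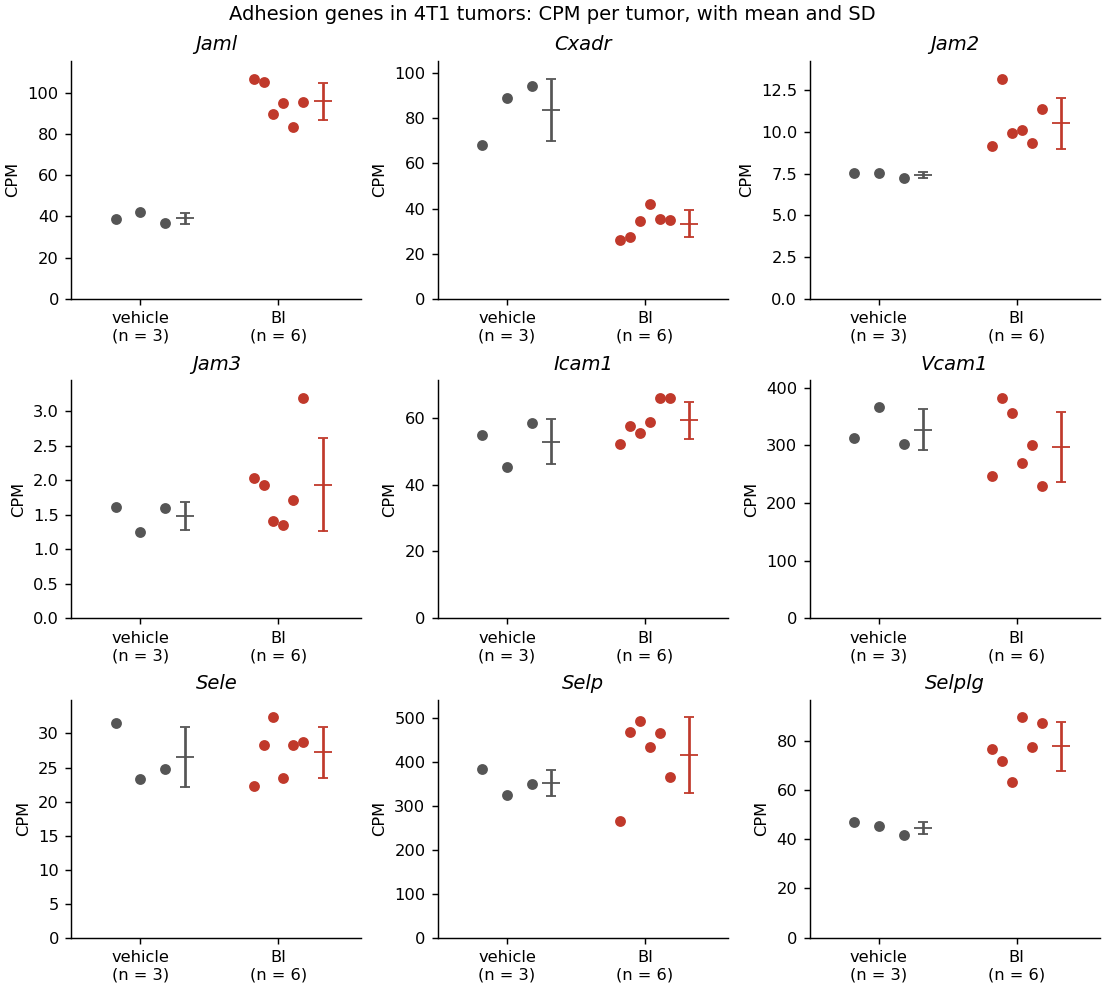
CPM of each adhesion gene (vertical axes, from 0) in the 3 vehicle-treated (grey) and 6 BI-treated (red) tumors, with 1 point per tumor and the mean and SD at the right of each group. Jaml, Selplg and Jam2 lie higher and Cxadr lower in every BI-treated tumor than in every vehicle-treated tumor, while the points of the other 5 genes overlap.

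Jaml (Entrez 270152, annotated as Amica1; mm9 chromosome 9, 44887266 to 44916613, plus strand) was at 38.9, 42.0 and 36.8 CPM in the vehicle-treated tumors and at between 83.4 and 107 CPM in the BI-treated tumors, with a median of 95.5 CPM. Every treated tumor thus held more than any control tumor. The mean was 39.2 ± 2.61 CPM (SD, n = 3) with vehicle and 96.1 ± 9.04 CPM (n = 6) with BI, a log2 fold change of 1.29 ± 0.0868 (SE), or 2.45-fold. Leaving out any 1 tumor kept it between 1.25 and 1.35. Its exons overlap those of Gm10684 on the other strand, which had 0 to 3 counts per tumor.

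Cxadr (Entrez 13052; chromosome 16, 78301741 to 78360030, plus strand), whose product binds that of Jaml, moved the other way. It was at 68.3, 89.0 and 94.3 CPM with vehicle and at between 25.9 and 42.1 CPM with BI, with a median of 34.7 CPM, and no treated tumor reached the lowest control. The mean went from 83.8 ± 13.8 CPM (n = 3) to 33.3 ± 5.92 CPM (n = 6), and the log2 fold change was -1.33 ± 0.139 (between -1.46 and -1.24 with any 1 tumor left out). Per length (RPKM), the ratio of Jaml to Cxadr was 1.61, 1.33 and 1.10 in the control tumors and between 6.40 and 11.7 in the treated tumors, with means of 1.35 ± 0.254 and 8.46 ± 2.26. Because every treated tumor had more Jaml and less Cxadr than any control, the ratios of the groups had to be apart.

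Jam2 and Jam3 encode junction proteins of endothelium that bind each other. Jam2 (Entrez 67374; chromosome 16, 84774368 to 84826173, plus strand) was at 7.52, 7.52 and 7.22 CPM with vehicle and at between 9.17 and 13.2 CPM with BI, with a median of 10.03 CPM. The groups did not overlap, the means being 7.42 ± 0.172 (n = 3) and 10.5 ± 1.52 CPM (n = 6), and the log2 fold change was 0.50 ± 0.126, or 1.42-fold. Without vehicle replicate 3, the most deeply sequenced library, the call was lost with a log2 fold change of 0.48. Jam3 (Entrez 83964; chromosome 9, 26904969 to 26963003, minus strand) was the scarcest of the 9 genes, with 28 to 55 counts per tumor. It was at 1.604, 1.25 and 1.59 CPM with vehicle and at between 1.35 and 3.19 CPM (median 1.82) with BI, the highest value being that of BI replicate 6. Its groups overlapped, and the 95% interval of its log2 fold change, from -0.24 to 0.99, holds that of Jam2.

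Icam1 and Vcam1 are the endothelial ligands of leukocyte integrins and are known as targets of inflammatory cytokines. Icam1 (Entrez 15894; chromosome 9, 20820404 to 20833241, plus strand) was at 55.0, 45.2 and 58.3 CPM with vehicle and at between 52.2 and 65.9 CPM with BI, with a median of 58.1 CPM. Vcam1 (Entrez 22329; chromosome 3, 115812938 to 115832606, minus strand) was at 312, 367 and 302 CPM with vehicle and at between 230 and 382 CPM with BI, with a median of 285 CPM. For both genes the ranges overlapped. The means of Icam1 were 52.9 ± 6.82 (n = 3) and 59.3 ± 5.57 CPM (n = 6), with a log2 fold change of 0.16 and a 95% interval from -0.04 to 0.37. Those of Vcam1 were 327 ± 35.0 and 297 ± 60.8 CPM, with -0.14 and an interval from -0.46 to 0.18. Both intervals included 0, which is a description and not a test, since the genes were chosen by this comparison.

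Sele and Selp encode E-selectin and P-selectin, the first of which is made upon cytokine exposure and the second of which is stored in endothelial cells and platelets. Sele (Entrez 20339; chromosome 1, 165978365 to 165987808, plus strand) was at 31.5, 23.3 and 24.8 CPM with vehicle and at between 22.3 and 32.4 CPM with BI, with a median of 28.3 CPM. Its groups overlapped over nearly their whole range, with means of 26.5 ± 4.36 (n = 3) and 27.2 ± 3.73 CPM (n = 6), a log2 fold change of 0.04 (95% interval from -0.24 to 0.32) and a sign that depended on single tumors (-0.05 to 0.18 with any 1 left out). Selp (Entrez 20344; chromosome 1, 166045395 to 166080157, plus strand) was at 384, 326 and 349 CPM with vehicle and at between 267 and 495 CPM with BI, with a median of 451 CPM. The lowest value of all 9 tumors was that of BI replicate 1, and 4 of the other treated tumors exceeded every control. The log2 fold change of Selp was 0.24 (95% interval from -0.11 to 0.59), and without BI replicate 1 it was 0.34 and passed the threshold. Gm16548, on the other strand within Selp, had 0 to 10 counts per tumor. The 6 platelet markers summed to between 58.2 and 93.9 CPM with vehicle and between 70.2 and 90.4 CPM with BI, with 1 called, and the part of platelets in the Selp values was not tested.

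Selplg (Entrez 20345; chromosome 5, 114267807 to 114280510, minus strand), the leukocyte ligand of the selectins, was at 46.9, 45.3 and 41.8 CPM with vehicle and at between 63.5 and 89.7 CPM with BI, with a median of 77.3 CPM. The groups did not overlap. The mean was 44.7 ± 2.60 CPM (n = 3) against 77.9 ± 9.80 CPM (n = 6), a log2 fold change of 0.80 ± 0.102, or 1.74-fold, and it stayed between 0.76 and 0.86 with any 1 tumor left out. Selplg was thus higher in every BI-treated tumor, while the groups of Sele and Selp overlapped. A difference between Selplg and the selectins was not tested, and Selp passed the threshold without BI replicate 1.

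Levels of different genes were compared per length, as RPKM from TMM-normalized counts and the deposited gene lengths. In vehicle-treated tumors Selp (103 ± 8.51) and Vcam1 (96.3 ± 10.3) were the most abundant and overlapped in range. They were followed by Icam1 (20.8 ± 2.68), Selplg (17.2 ± 1.00) and Jaml (15.95 ± 1.06), of which neighbours overlapped, then by Cxadr (12.1 ± 1.98) and Sele (9.11 ± 1.497), which overlapped too, and by Jam2 (1.54 ± 0.0358) and Jam3 (0.753 ± 0.101). The ranges of Vcam1 and Icam1, of Jaml and Cxadr, of Sele and Jam2 and of Jam2 and Jam3 were apart. Selp thus stood 11.4 ± 0.900 times above Sele in the control tumors and 12.9 ± 2.13 times in the treated tumors.

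In BI-treated tumors the order was Selp (121 ± 24.9), Vcam1 (87.5 ± 17.9), Jaml (39.1 ± 3.68), Selplg (29.9 ± 3.76), Icam1 (23.4 ± 2.19), Sele (9.36 ± 1.28), Cxadr (4.80 ± 0.852), Jam2 (2.185 ± 0.315) and Jam3 (0.982 ± 0.341 RPKM). Selp and Vcam1, Jaml and Selplg, and Selplg and Icam1 did not differ beyond their ranges, while all other neighbours did. Jaml passed from rank 5 to rank 3 and Icam1 from 3 to 5. Selp in the controls was also above the endothelial marker Pecam1 (24.2 ± 2.14 RPKM), the platelet marker Pf4 being at 69.9 RPKM.

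**Figure D2:**
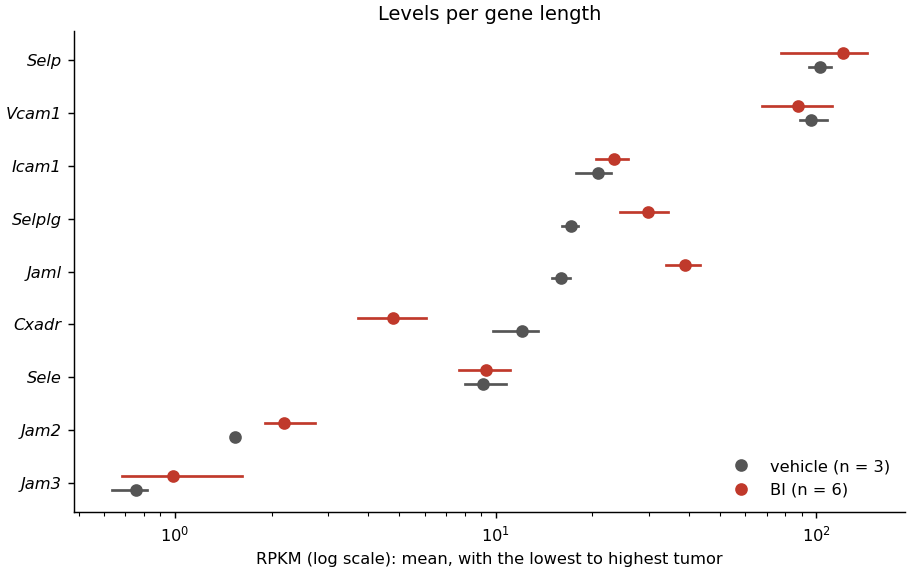
Mean RPKM (points, logarithmic horizontal axis) of each gene in vehicle-treated (grey, n = 3) and BI-treated (red, n = 6) tumors, with lines from the lowest to the highest tumor. Selp and Vcam1 stand highest in both groups, and Jaml (15.95 to 39.1) and Cxadr (12.1 to 4.80) part in opposite directions.

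Marker transcripts of the cell types that use these genes differed in level between the groups, which does not measure numbers of cells. By staining of sections for CD31 protein, the authors found no significant change in blood vessel density in tumors of this cell line. That is another measure than RNA level, and how long those tumors were treated is not given in the sources used here. Each gene was also set against marker levels, as its log2 CPM minus the mean log2 CPM of a marker list in the same tumor. The endothelial reference itself was 0.27 higher on the log2 scale in BI-treated tumors. Against it Jam2 was at -1.14 ± 0.0553 with vehicle and -0.92 ± 0.120 with BI, so that the groups, apart in CPM, overlapped. Icam1, Sele, Selp, Vcam1 and Jam3 overlapped as well, with differences of -0.10, -0.23, -0.06, -0.43 and 0.04. Which cells carried these transcripts was not tested, and a level per endothelial marker does not place them in endothelium. Jaml (by 1.02) and Selplg (by 0.52) stayed above and Cxadr (by -1.60) stayed below in all treated tumors. With Pecam1 and Cdh5 as the reference, the groups of Selplg overlapped (0.43).

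The pan-leukocyte reference was 0.59 higher with BI, and the references that follow were chosen after the data had been seen. Per leukocyte marker level, Selplg was at -1.87 ± 0.0484 with vehicle and -1.67 ± 0.112 with BI, and its groups overlapped. Jaml remained apart, at -2.06 ± 0.127 against -1.36 ± 0.166, a difference of 0.70. The level of Jaml was thus higher also relative to the pan-leukocyte genes, whereas for Selplg the difference shrank from 0.80 in the fold change to 0.20. Single leukocyte types differed from this reference. Median log2 fold changes were 1.125 for T cell, 1.01 for dendritic, 0.93 for macrophage and -0.91 for neutrophil markers. The level of Jaml relative to these lists was not tested. Vcam1 (-0.75) and Sele (-0.55) lay below the controls on this scale in all treated tumors, while their CPM overlapped and the reference itself was higher. Against Krt8 and Krt18 their differences were 0.23 and 0.43, with overlapping groups.

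Krt8 and Krt18, the most abundant keratin genes of the epithelial list, had a joint log2 level 0.39 lower with BI. Cxadr per keratin level was at -2.66 ± 0.349 with vehicle and -3.60 ± 0.413 with BI, and the difference of -0.94 again left the groups apart. The log2 fold change of Cxadr was thus larger in size than the change of these 2 genes, which were picked after the data had been seen and do not stand for the whole epithelial list, whose median log2 fold change was 0.13 (Epcam 1.06, Cdh1 0.16 and Krt19 0.15, all not called). Which cells lost or gained these transcripts was not tested.

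**Figure D3:**
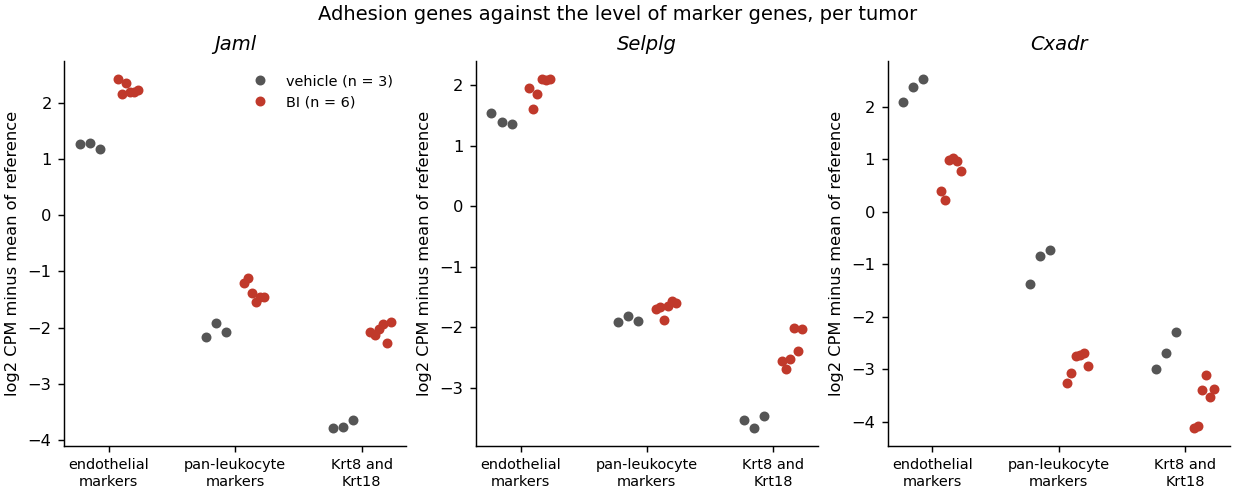
Log2 CPM of Jaml, Selplg and Cxadr minus the mean log2 CPM of 16 endothelial markers, 8 pan-leukocyte markers or Krt8 and Krt18 (vertical axes), with 1 point per tumor, vehicle in grey (n = 3) and BI in red (n = 6). Jaml is higher and Cxadr lower in the treated tumors against each reference, while Selplg overlaps against the pan-leukocyte markers.

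Marker transcripts of single leukocyte types also differed between the groups, and no cell shares were measured. Of the T cell markers 9 of 10 were called higher (summed level 167 to 195 CPM with vehicle, 284 to 371 CPM with BI), of the macrophage markers 8 of 9 higher and 1 lower (1770 to 2325 against 3345 to 4053 CPM), and of the dendritic markers 5 of 7 higher (48.4 to 59.6 against 88.0 to 149 CPM, 3 without vehicle replicate 2). Of the 7 neutrophil markers tested 5 were called lower, with sums of 1104 to 1264 CPM with vehicle and 376 to 847 CPM with BI. Jaml and Selplg are known in several of these cell types, and the part of each in their levels was not tested. Among B cell markers 2 of 4 tested were called higher (between 0 and 2 with any 1 tumor left out) and among fibroblast markers 1 of 7 (between 0 and 4). Among pericyte, lymphatic, adipocyte and skeletal muscle markers 0 of 7, 3, 5 and 5 were called in either direction by edgeR, DESeq2 or limma-voom, and at an unadjusted p of 0.05 only 1 adipocyte gene passed. With single tumors left out, 1 lymphatic gene (Lyve1, log2 fold change 0.75) was called higher without vehicle replicate 2 and 1 adipocyte gene without BI replicate 1. The lymph node stroma list held 1 gene, Cxcl13, which was called higher, but not without vehicle replicate 3.

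The integrins on the leukocyte that Icam1, Vcam1 and the junction proteins bind were examined as a list of 8 genes, in which 5 were called higher and 1 lower, with a median log2 fold change of 0.41. Itgal, the alpha chain of the main Icam1 receptor, went from 38.6 ± 5.11 (n = 3) to 78.6 ± 12.7 CPM (n = 6), a log2 fold change of 1.03 (adjusted p = 0.000264, edgeR). Itga4, the alpha chain of the Vcam1 receptor, went from 41.5 ± 2.63 to 84.6 ± 15.0 CPM, also by 1.03 (adjusted p = 0.000237, edgeR). Both alpha chains thus rose while Icam1 and Vcam1 had overlapping groups. Itgam rose by 0.53 and Itgb2, the shared beta chain, by 0.29 (adjusted p = 0.00203 and 0.0051, edgeR). Itgb1, the partner of Itga4, was at 914 ± 19.5 and 897 ± 40.1 CPM (log2 fold change -0.03, adjusted p = 0.776, edgeR). Itgb7, the other partner of Itga4, fell from 119 ± 25.2 to 74.5 ± 12.3 CPM, by 0.68 on the log2 scale (adjusted p = 0.00536, edgeR). The log2 fold changes of alpha and beta chain genes thus differed in size, but this difference was not tested. Itgb2 is shared by Itgal and by the more abundant Itgam (375 CPM with vehicle), and Itgb1 stood far above Itga4. The median log2 fold change of the pan-leukocyte markers was 0.66. Which cells carried each chain was not tested. Itgad, named after its values were seen, was the fifth gene called higher, at a mean of 0.237 and 1.03 CPM.

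Other genes of the junction family were called lower or not called with all 9 tumors. Of 8 listed genes 5 were tested, 0 called higher and 2 lower (median 0.28), the lower count being 1 without vehicle replicate 1. Higher calls numbered 0 by DESeq2 and limma-voom but 1 without the filter on low counts and 1 without BI replicate 3, and 2 genes were higher at an unadjusted p of 0.05. F11r, which encodes another junctional adhesion molecule of epithelium, endothelium and platelets, fell from 66.5 ± 9.25 to 54.6 ± 1.98 CPM, a log2 change of -0.28 (adjusted p = 0.0166, edgeR), which was -0.16 and no longer called without vehicle replicate 1. Gpa33, an epithelial surface antigen of this family, fell from 31.4 ± 0.694 to 18.8 ± 2.59 CPM, by 0.74 on the log2 scale (adjusted p = 0.000417, edgeR). Esam, the endothelial member, was at 10.97 ± 1.21 and 13.6 ± 1.82 CPM (log2 fold change 0.31, adjusted p = 0.0765, edgeR), and without BI replicate 3 it was called (0.36, adjusted p = 0.0497, edgeR). The 2 genes with the lower calls are known in epithelium, as is Cxadr, though F11r is not confined to it. The 3 genes not called had positive log2 fold changes: Esam as given, Clmp 0.28 and Vsig2 0.91. Clmp and Vsig2 were named after their values were seen. Which cells carried these transcripts was not tested.

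Of 16 other vascular adhesion genes 12 were tested, with 2 called higher and 3 lower and a median of -0.19. Podxl, a sialomucin of endothelium and of tumor epithelium, fell from 159 ± 15.0 to 99.8 ± 10.4 CPM (log2 fold change -0.68, adjusted p = 0.000271, edgeR). Icam2, on endothelium and leukocytes, fell by 0.41 on the log2 scale (adjusted p = 0.00932, edgeR), and without vehicle replicate 1 the value was -0.32 with an adjusted p of 0.0561. Cd44, the most abundant gene of this list, was at 586 ± 50.3 and 561 ± 25.3 CPM (adjusted p = 0.513, edgeR). The higher calls, of Cd34 and Aoc3 (both named after their values were seen), were both lost when vehicle replicate 1 or 2 was left out, and likewise without BI replicate 4 or 6.

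**Figure D4:**
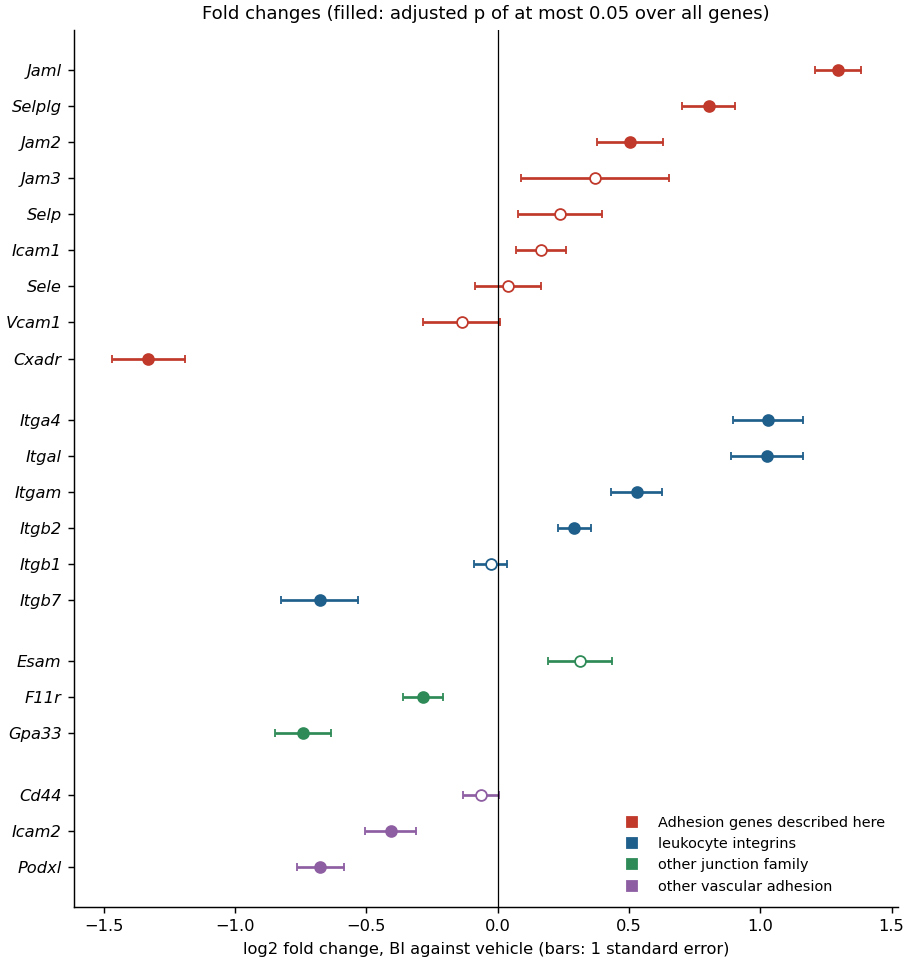
Log2 fold change of BI-treated against vehicle-treated tumors (horizontal axis; bars, 1 standard error) for the 9 adhesion genes and for named genes of 3 related lists, with filled points where the p adjusted over all genes was at or below 0.05. Among the integrins Itga4 and Itgal lie near 1.03, beside Jaml at 1.29, and Cxadr at -1.33 lies below all other genes shown.

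The glycans that make PSGL a selectin ligand need sialyl-, fucosyl- and other transferases. Of 13 such genes 12 were tested, of which 0 were called higher and 1 lower (median 0.05), and 2 genes were higher at an unadjusted p of 0.05. DESeq2 and the likelihood ratio test called 1 higher (Gcnt1) and limma-voom 0, and with single tumors left out the counts reached 2 higher (without BI replicate 5) and 2 lower (without vehicle replicate 2). The gene called lower was St3gal6, a sialyltransferase, which went from 91.1 ± 4.399 to 66.7 ± 4.75 CPM (log2 fold change -0.45, adjusted p = 0.00051, edgeR). Gcnt1, the branching enzyme of these glycans, was at 16.6 ± 0.527 and 21.4 ± 3.96 CPM (0.37, adjusted p = 0.0627, edgeR). B4galt1, the most abundant of the list, was at 205 ± 10.7 and 218 ± 9.88 CPM (adjusted p = 0.258, edgeR). Selplg was thus higher while calls of higher enzyme genes depended on the test and the tumors used.

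The cytokines and the NF-kappaB pathway that induce Icam1, Vcam1 and Sele were examined as a list of 20 genes. Of 18 tested, 2 were called higher and 5 lower, with a median log2 fold change of 0.00350. The lower count was 3 without vehicle replicate 1, 2 or 3, and the higher count was 4 by DESeq2 and 3 without BI replicate 1, 2 or 5. Tnfaip3, a feedback inhibitor and target of NF-kappaB, fell from 64.0 ± 6.78 to 46.3 ± 2.02 CPM (-0.47, adjusted p = 0.000585, edgeR). Ltb, a lymphocyte cytokine, rose from 7.22 ± 0.813 to 13.5 ± 2.58 CPM (0.90, adjusted p = 0.00174, edgeR), and Tnfrsf1a, the tumor necrosis factor receptor, rose by 0.27 (adjusted p = 0.0047, edgeR). Il1r1, the most abundant gene of the list, fell by 0.22 on the log2 scale (adjusted p = 0.0183, edgeR) and was not called without vehicle replicate 1 (0.0639) or 3 (0.0871). The remaining lower calls were Il1b, Nfkb2 and Nfkb1, named after their values were seen. Their log2 fold changes were -0.67, -0.23 and -0.19 (adjusted p = 0.00475, 0.0199 and 0.0251, edgeR). Genes of this list were thus called in both directions.

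Within the 6 BI-treated tumors, a spread not used to choose the genes, the 36 pairs of adhesion genes were compared by Pearson's r and Spearman's rho with two-sided exact permutation p over 720 orders. After adjustment 0 pairs passed, the smallest adjusted p being 0.733. At an unadjusted p of at most 0.05, 0 pairs passed by r and 1 by rho, and 21 of the 36 values of r were positive. The pair passing by rho was Vcam1 and Selp, with r = 0.73 (exact permutation p = 0.0847, adjusted 0.733) and rho = 0.89 (p = 0.0333, adjusted 0.764), and r = 0.67 without the 2 tumors farthest from the median. For Jaml and Cxadr r was -0.69 (exact permutation p = 0.103) and rho -0.71 (p = 0.136), with -0.66 without 2 tumors. With 6 tumors these relations were not resolved.

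Of 54 relations of the 9 genes with 6 marker lists in the same tumors, 0 passed after adjustment (smallest adjusted p 0.075), 1 by r and 2 by rho without it. The strongest was that of Jaml with the platelet markers, with r = 0.91 (exact permutation p = 0.00139, adjusted 0.075) and rho = 1.0 (p = 0.00278, adjusted 0.15), and r = 0.70 without 2 tumors. It did not pass the adjusted threshold.

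As a description of how single genes followed each other, log2 CPM over the 9 tumors were correlated after subtraction of the group means. Neighbours were sought among the 12186 genes with a mean log2 CPM of at least 1. Jam3, with a mean of 0.857, was below this limit and could not be listed for another gene. The genes most like Jaml were Gcsam (r = 0.99), Peg3 (0.97) and Fcgr2b (0.97). Those most like Selplg were Gngt2 (0.97), Iffo1 (0.95) and Gna15 (0.95), and those most like Cxadr were Pnpt1 (0.95), Crabp2 (0.94) and Serpinf1 (0.93). Among the vascular genes, Vcam1 was closest to Csad, Selp to Myo18a (0.98), Sele to Tti1 (0.98), Icam1 to Lgi2 (0.99) and Jam2 to Atp13a1 (0.98), while Jam3 was closest to Catsper2 (0.96). None of the 9 genes was among the 3 nearest of another, but with 3 places among 12186 genes nothing is read from this. These values rest on 9 tumors that share depth and makeup and are the highest of many genes.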

How the data were processed

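RNA from 9 tumors (3 vehicle, 6 BI) was sequenced by the authors from stranded, paired-end mRNA libraries. Per the labels and the study's methods, the authors aligned reads to mm9 with STAR, kept single alignments and counted with QuasR reads starting in RefSeq exons. They deposited raw counts without normalization. Use of strand and of both mates in counting is not given in the sources used here.

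Counts were analysed with edgeR 4.0.16 (R 4.3.3): filterByExpr (count of 10, total of 15), TMM, quasi-likelihood F test of all 9 tumors without covariates, Benjamini-Hochberg over 13966 genes, called at an adjusted p of at most 0.05. Log2 CPM used a prior count of 2. RPKM used the deposited lengths. RefSeq gave symbols for 18700 of 18755 genes by their Entrez identifiers, and positions on mm9 came from GENCODE. Libraries were taken as separate animals, and p-values measure only the spread between these samples. Within a group, libraries differed by a mean chi-square per gene of at least 8.72, so that none was a duplicate. The fit was tested on simulated data.

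The 9 genes, the lists and the alternatives were chosen with earlier results of these data known. Named were all 9 genes, for each related list its most abundant gene and the 3 with the smallest p, the integrins and junction genes that pair with the 9, and for each of the 9 the 3 most alike genes. A gene that falls under this rule is not reported here. List entries Cd99, Ly6g, Ccl21a and Ccl19 were not analysed here. As alternatives, size factors as in DESeq2 1.42.0 (RLE), library size only, no filter, at least 1 CPM in at least 3 tumors, the likelihood ratio test, DESeq2, limma-voom (limma 3.58.1), another call rule, a prior count of 0.5, another endothelial reference and the omission of each tumor in turn were tried. The leukocyte and keratin references were chosen after seeing the data.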

Additional observations from a re-analysis of the deposited data

Results flagged for a closer look

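In the plots of single tumors, 79 sets of values in the BI-treated tumors were examined for a tumor far from the others by Dixon's criterion for 6 samples, which chance passes in about 1 set of 20. All 4 that passed came from BI replicate 6. Jam3 stood at 3.19 CPM there, against 1.35 to 2.03 CPM in the other 5 treated tumors, and its log2 fold change was 0.18 without this tumor. Cidec, an adipocyte gene, stood at 22.6 CPM against 1.80 to 7.82 CPM. Cxcl13, a chemokine of lymph node stroma, stood at 109 CPM against 10.4 to 37.8 CPM, and the summed level of the lymph node stroma list (109 CPM) is the same gene.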

How the results depend on the processing

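No paired analysis was possible because the replicate numbers follow accession order only and pair no tumors. Under RLE scaling, library size scaling, no filter, the CPM filter, the likelihood ratio test, DESeq2 and limma-voom, the 9 adhesion genes kept direction and call. The median of all genes moved by less than 0.01 under each. The number of adhesion genes called higher was 3 and ranged from 2 to 4 with any 1 tumor left out, and 1 was called lower throughout. Over the 5 related lists 9 genes were called higher (6 to 11) and 12 lower (8 to 13), and over the marker lists 40 higher (32 to 45) and 8 lower (7 to 8). Over all genes, 4013 were called, but 2504 without vehicle replicate 3, 2763 without vehicle replicate 1 and 3066 without vehicle replicate 2; with only 2 control tumors fewer genes pass. Jam3, with 28 to 55 counts per tumor, had the widest interval of the 9 genes, and depth limits what could be seen there.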
